A study of Arabidopsis thaliana with 6 samples.

Results

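The genes described here are 10 core genes of DNA replication in Arabidopsis thaliana, named by locus: the MCM2, MCM3, MCM4, MCM5, MCM6 and MCM7 genes, the sliding clamp genes PCNA1 and PCNA2, and the ribonucleotide reductase genes RNR1 and TSO2. All 10 were found among the 34262 genes listed in the deposited comparison tables, and all 10 had reads and a test, as did 23540 genes used here in all. RNA of whole Col-0 seedlings, 14 days old and raised at 22 °C in long days, was sequenced in 6 libraries of 3 genotypes. The jmj28 genotype is a mutant of JMJ28, a gene of the JmjC histone demethylase family, with an allele not given in the sources used here. From its name and its JMJ28 level, JMJ28np5-OE is read as an overexpression line, and neither its promoter, the number of lines nor the meaning of np5 is stated. The WT genotype is Col-0 without either alteration. Each genotype had 2 libraries, and how many seedlings or growth batches stood behind a library is not given. The comparisons ask how transcript levels differ with less and with more JMJ28 transcript.

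MCM2 to MCM7 form the ring-shaped helicase that is loaded at replication origins before S phase and unwinds the DNA ahead of the fork. PCNA is the ring that slides along DNA and holds the replicative polymerases on it, and Arabidopsis has a pair of genes for it. Ribonucleotide reductase makes deoxynucleotides from ribonucleotides, with RNR1 as its large subunit and TSO2 as a small subunit. In plants these genes are known as S phase genes whose transcripts are concentrated in dividing cells, and E2F transcription factors are known regulators of many of them.

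The E2F-type words were looked for first, in the window from 250 bases before to 50 bases after each annotated gene start. The words searched were TTTCCCGC, TTTGGCGC, TTTGCCGC and TTTCGCGC, on both strands. Of the 10 replication genes, 6 had a word in this window, against 1.76% of 27443 windows of protein-coding genes. Each of the 6 windows held 1 word. The 180 bases before the gene start are printed for the 5 MCM genes with a word upstream of the start, 5′ to 3′ on the strand of the gene, with the word in capitals, as it reads on that strand (TAIR10 coordinates):
MCM2, chr1:16970034-16970213, plus strand: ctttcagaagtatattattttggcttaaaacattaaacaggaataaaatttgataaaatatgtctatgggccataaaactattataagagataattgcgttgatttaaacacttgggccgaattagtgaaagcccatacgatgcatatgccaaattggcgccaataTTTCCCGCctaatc
MCM3, chr5:18773707-18773886, minus strand: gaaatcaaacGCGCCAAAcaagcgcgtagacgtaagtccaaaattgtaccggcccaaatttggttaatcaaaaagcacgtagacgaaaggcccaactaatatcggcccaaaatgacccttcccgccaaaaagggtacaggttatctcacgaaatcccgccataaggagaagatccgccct
MCM4, chr2:7130730-7130909, minus strand: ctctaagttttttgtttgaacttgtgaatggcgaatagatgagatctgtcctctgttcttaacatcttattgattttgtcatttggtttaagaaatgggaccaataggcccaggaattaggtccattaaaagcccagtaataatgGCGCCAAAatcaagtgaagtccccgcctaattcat
MCM5, chr2:3527501-3527680, minus strand: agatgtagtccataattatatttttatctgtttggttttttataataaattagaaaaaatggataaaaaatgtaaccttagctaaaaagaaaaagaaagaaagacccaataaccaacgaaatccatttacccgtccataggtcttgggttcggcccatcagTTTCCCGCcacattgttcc
MCM6, chr5:18010668-18010847, minus strand: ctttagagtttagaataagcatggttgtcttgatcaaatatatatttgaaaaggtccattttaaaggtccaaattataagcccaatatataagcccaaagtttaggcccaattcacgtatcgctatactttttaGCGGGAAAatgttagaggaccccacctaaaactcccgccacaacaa

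In MCM2 the word TTTCCCGC lay on the strand of the gene, from base -14 to base -7 counted from the gene start. MCM5 had the same word on the same strand, from base -19 to base -12. MCM6 had it on the other strand, from base -46 to base -39. These 3 genes thus shared 1 word within 50 bases of the start. MCM4 held TTTGGCGC on the other strand, from base -35 to base -28, and MCM3 held the same word on the other strand but farther out, from base -170 to base -163. RNR1 held TTTCCCGC on the other strand just inside the transcribed region, from base 11 to base 18. In MCM7, PCNA1, PCNA2 and TSO2 none of the 4 words was found in the window, which says only that these letters are not there. The same 180 bases, a part of the window searched, are printed for PCNA1 and TSO2, which had the 2 largest log2 fold changes of the 10 genes in jmj28 against JMJ28np5-OE:
PCNA1, chr1:2262857-2263036, plus strand: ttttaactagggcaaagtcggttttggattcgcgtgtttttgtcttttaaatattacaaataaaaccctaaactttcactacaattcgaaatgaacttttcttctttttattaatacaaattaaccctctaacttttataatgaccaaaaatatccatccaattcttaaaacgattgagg
TSO2, chr3:9981621-9981800, minus strand: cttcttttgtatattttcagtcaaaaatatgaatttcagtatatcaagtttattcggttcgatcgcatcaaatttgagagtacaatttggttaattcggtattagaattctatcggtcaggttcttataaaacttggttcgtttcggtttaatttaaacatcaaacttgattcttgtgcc

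With the shorter core GGCGGG or CCCGCC in place of the 8-letter words, 8 of the 10 genes had a match, against 2.27% of all windows. The core overlaps TTTCCCGC wherever that word is followed by another C. In MCM3 the printed bases hold the core CCCGCC nearer the start than the 8-letter word. Among the other replication lists, 7 of 21 genes of origin licensing and helicase activation and 9 of 27 genes of the replication fork held an 8-letter word. So did 3 of 10 DNA damage response genes and 1 of 9 genes for E2F, DP and RBR. None of the 14 mitotic genes listed did, and none of 6 other genes of deoxynucleotide supply.

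**Figure D1:**
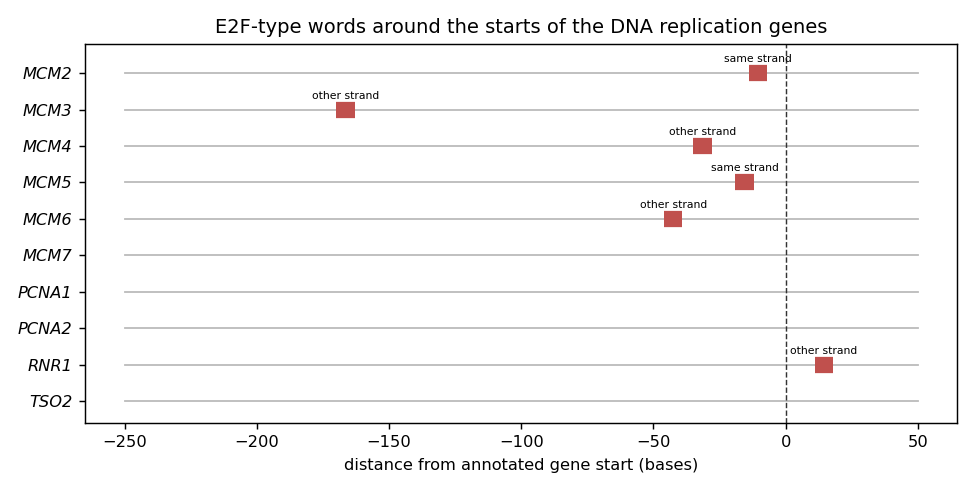
Positions of E2F-type words (boxes) around the annotated start of each replication gene, in bases from the start, with the strand relative to the gene above each box. Each grey line is the 300-base window searched; 5 of the 6 words lie before the start and that of RNR1 after it.

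The labels were checked on JMJ28 itself. JMJ28 stood at 244 and 307 RPKM (reads per kilobase of exon, scaled to the library total) in the JMJ28np5-OE libraries, against 6.90 and 6.50 RPKM in WT. In jmj28 its log2 fold change against WT was -1.10 by the authors' deposited table (FDR 3.07e-08), so reads of the gene were still present in the mutant. Library totals ran from 10632893 to 19693228 reads. The deposited tables hold genotype means, from which the whole reads of both libraries were recovered for the highest and the second-highest genotype of a gene. For all 10 replication genes these were jmj28 and WT. The JMJ28np5-OE level of these genes is known only as a mean, estimated from the deposited fold changes, and its spread between libraries is unknown. Libraries are named deeper and shallower by their totals.

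All 10 genes had their highest mean in jmj28, the next in WT and the lowest in JMJ28np5-OE. The share of all genes with this order was not counted. Against WT none of the 10 passed an FDR (false discovery rate, the p-value adjusted over all genes) of 0.05 in jmj28, and RNR1 alone passed it in JMJ28np5-OE. Between jmj28 and JMJ28np5-OE, 6 of the 10 genes passed. In RNA of whole seedlings, a smaller share of dividing cells and less RNA per dividing cell cannot be told apart.

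**Figure D2:**
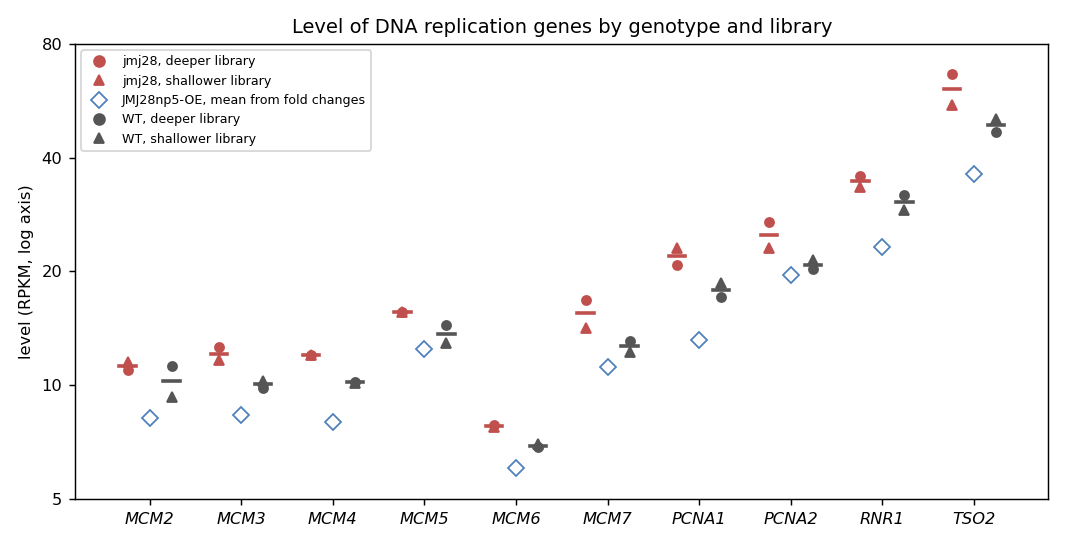
Level of each replication gene in RPKM on a log axis. Filled points are the recovered libraries of jmj28 (red, left) and WT (grey, right) with a bar at their mean. Open diamonds are the JMJ28np5-OE means estimated from fold changes, whose spread between libraries is unknown.

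The levels per exon length differed between the 10 genes by more than they differed between genotypes. TSO2 was the highest of them, with 66.5 and 55.1 RPKM in the jmj28 libraries, an estimated mean of 36.2 RPKM in JMJ28np5-OE, and 46.8 and 50.6 RPKM in WT. MCM6 was the lowest, with 7.84 and 7.73 RPKM in the jmj28 libraries, an estimated mean of 6.05 RPKM in JMJ28np5-OE, and 6.87 and 6.97 RPKM in WT. The read numbers behind these values ran from 266 for MCM6 in the shallower jmj28 library to 1886 for RNR1 in the deeper WT library. The 6 MCM genes lay within a narrow range, with mean levels of 7.79 to 15.6 RPKM in jmj28 and 6.92 to 13.7 RPKM in WT. Both clamp genes and both reductase genes lay above all 6 MCM genes in each genotype.

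In jmj28 against WT the helicase genes were 6.21% to 19.5% higher by the deposited fold changes, and none of the 6 passed the test. MCM2 (AT1G44900, chr1:16970214-16974753, 19 exons) had 474 and 432 reads in the deeper and the shallower jmj28 library, against 705 and 425 reads in WT. These are 11.0 and 11.5 RPKM in jmj28, against 11.2 and 9.33 RPKM in WT. The genotypes overlapped, because the deeper WT library lay between both jmj28 libraries. MCM2 had a log2 fold change of 0.09 ± 0.14 (SE, from the deposited p-value) by the authors' deposited table, the smallest of the 10.

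MCM3 (AT5G46280, chr5:18769649-18773706) had 12.6 and 11.6 RPKM in the libraries of jmj28, against 9.83 and 10.3 RPKM in WT. MCM4 (AT2G16440, chr2:7126279-7130729) had 12.1 and 12.0 RPKM in jmj28, against 10.2 and 10.1 RPKM in WT. MCM5 (AT2G07690, chr2:3522984-3527500) had 15.6 RPKM in both jmj28 libraries, against 14.4 and 13.0 RPKM in WT. In each of these 3 genes both jmj28 libraries lay above both WT libraries. MCM6 (AT5G44635, chr5:18006212-18010667) did so as well with the values given above, and so did MCM7 (AT4G02060, chr4:900636-905591), with 16.9 and 14.2 RPKM in jmj28, against 13.1 and 12.2 RPKM in WT. The jmj28 libraries of MCM7 stood farther apart than those of any other MCM gene. The log2 fold changes of MCM3 to MCM7 in jmj28 against WT ran from 0.14 for MCM6 to 0.26 for MCM7 in the authors' deposited table, with an FDR of 0.910 for MCM7.

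PCNA1 (AT1G07370, chr1:2263037-2264553) had 20.8 and 23.0 RPKM in the libraries of jmj28, against 17.1 and 18.6 RPKM in WT. PCNA2 (AT2G29570, chr2:12649906-12651753) had 27.0 and 23.0 RPKM in jmj28, against 20.3 and 21.4 RPKM in WT. For both clamp genes the libraries of jmj28 lay above those of WT with no overlap. Their log2 fold changes were 0.26 ± 0.15 for PCNA1 and 0.23 ± 0.14 for PCNA2 in the authors' deposited table, and neither passed.

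RNR1 (AT2G21790, chr2:9293261-9297861, 17 exons) had 35.8 and 33.4 RPKM in the libraries of jmj28, against 31.9 and 29.1 RPKM in WT. TSO2 (AT3G27060, chr3:9979841-9981620, 2 exons), with the levels given above, had the smallest p-value of the 10 genes in this comparison. Its log2 fold change was 0.29 ± 0.13 by the authors' deposited table (p = 0.0246, FDR 0.623). The libraries of the 2 genotypes did not overlap for either reductase gene.

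In all, 0 of the 10 genes passed FDR 0.05 in jmj28 against WT, against 1.3% of all genes tested. Before adjustment 1 of 10 (TSO2) had a deposited p-value under 0.05, a threshold at which the share of all genes was not counted. The median log2 fold change of the 10 was 0.22, against -0.004 over all genes tested. Both jmj28 libraries lay above both WT libraries in 9 of the 10 genes, MCM2 being the exception. That count is read against 36.1% of the 9924 genes whose reads were recovered in both genotypes, and against 56.4% of those with a log2 fold change above 0.

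**Figure D3:**
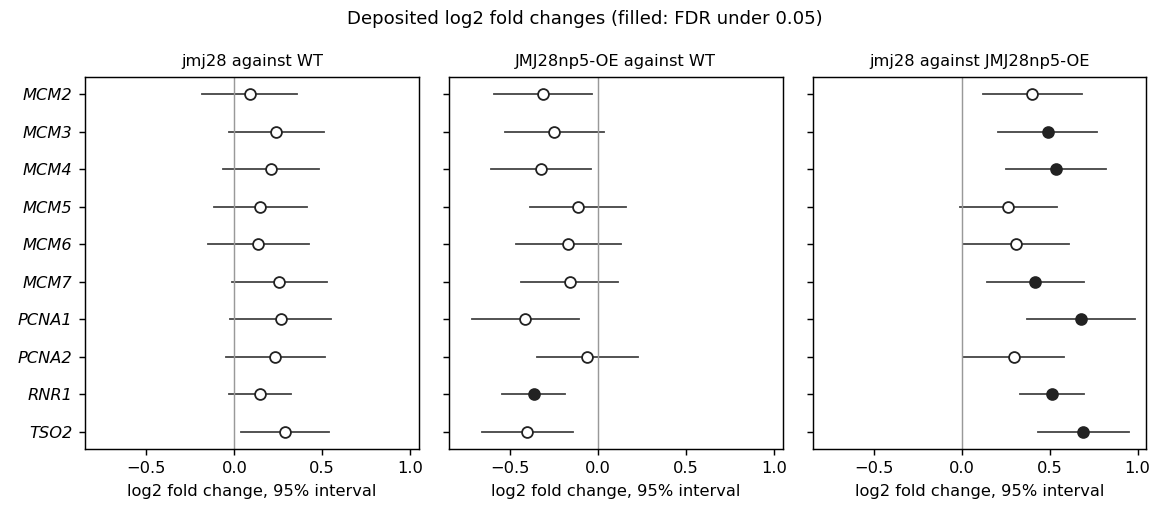
Log2 fold change of each replication gene in the 3 comparisons, from the authors' deposited tables, with 95% intervals from the deposited p-values (whiskers); filled points passed FDR 0.05. In jmj28 against JMJ28np5-OE 9 of 10 intervals exclude 0, in JMJ28np5-OE against WT 5 do, and in jmj28 against WT only that of TSO2 does. The intervals are not adjusted for the number of genes tested. The share of all genes tested whose intervals exclude 0 was not counted. At FDR 0.05, 11.4% of all genes tested were called in jmj28 against JMJ28np5-OE. The shares were 3.55% in JMJ28np5-OE against WT and 1.3% in jmj28 against WT.

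In JMJ28np5-OE against WT only RNR1 of the 10 genes passed. RNR1 fell by 22.5%, with an estimated mean of 23.3 RPKM in JMJ28np5-OE against 30.5 ± 2.02 RPKM in WT (SD, n = 2). Its log2 fold change was -0.37 ± 0.09 by the authors' deposited table (FDR 0.00511), with a 95% interval of -0.55 to -0.19. The small subunit gene TSO2 had a mean of 36.2 RPKM in JMJ28np5-OE, against 48.7 ± 2.74 RPKM in WT (SD, n = 2), and a log2 fold change of -0.40 ± 0.13 by the authors' deposited table (FDR 0.0742). TSO2 thus had a slightly larger difference than RNR1 with a wider error, and did not pass. It passed when p-values were adjusted over genes of at least 1 RPKM only.

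The clamp genes stood apart from each other in this comparison. PCNA1 had an estimated mean of 13.2 RPKM in JMJ28np5-OE, against 17.9 ± 1.06 RPKM in WT (SD, n = 2), and PCNA2 had 19.6 RPKM in JMJ28np5-OE, against 20.8 ± 0.80 RPKM in WT. Their log2 fold changes were -0.41 ± 0.16 for PCNA1 (FDR 0.176), the lowest of the 10 genes, and -0.06 ± 0.15 for PCNA2, the closest to 0, by the authors' deposited table. The intervals of -0.72 to -0.11 for PCNA1 and -0.35 to 0.23 for PCNA2 overlap, and the difference between the genes was not tested.

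The 6 MCM genes had log2 fold changes between -0.33 and -0.12 in JMJ28np5-OE against WT in the authors' deposited table. MCM2 had an estimated mean of 8.16 RPKM in JMJ28np5-OE, against 10.3 ± 1.35 RPKM in WT (SD, n = 2), and MCM4 had 7.97 RPKM in JMJ28np5-OE, against 10.2 ± 0.06 RPKM in WT. These were the largest differences of the 6, with an FDR of 0.375 for MCM2 and 0.343 for MCM4 in the authors' deposited table. MCM3 had an estimated mean of 8.32 RPKM in JMJ28np5-OE, MCM5 of 12.5 RPKM and MCM7 of 11.1 RPKM, each below both of its WT libraries. The spread of these estimates between libraries is unknown.

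One of the 10 genes, RNR1, was called lower in JMJ28np5-OE, against 0.684% of all genes tested called lower and 3.55% called in either direction. Before adjustment 5 of 10 (MCM2, MCM4, PCNA1, RNR1 and TSO2) had a deposited p-value under 0.05. The share of all genes tested at that unadjusted threshold was not counted. The median log2 fold change of the 10 was -0.28, against 0.002 over all genes tested. RNR1 had the smallest standard error of the 10, with at least 1183 reads in each recovered library. Its libraries did not lie closest together. They differed by 0.10 on the log2 scale in jmj28 and by 0.13 in WT, against 0.005 and 0.01 for MCM4.

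In jmj28 against JMJ28np5-OE, the direct contrast of both altered genotypes, the 10 genes were 1.20-fold to 1.61-fold higher in jmj28. TSO2 rose 1.61-fold, with a mean of 60.8 ± 8.02 RPKM in jmj28 (SD, n = 2) and an estimated mean of 36.2 RPKM in JMJ28np5-OE. Its log2 fold change was 0.69 ± 0.13 by the authors' deposited table (FDR 1.00e-05). RNR1 rose 1.43-fold, with 34.6 ± 1.70 RPKM in jmj28 and 23.3 RPKM in JMJ28np5-OE, and had the smallest FDR of the 10 at 2.59e-06 in the authors' deposited table. Both subunit genes of the reductase thus rose in the same comparison.

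PCNA1 rose 1.60-fold, with 21.9 ± 1.56 RPKM in jmj28 and 13.2 RPKM in JMJ28np5-OE (FDR 0.000561 by the authors' deposited table). PCNA2 had 25.0 ± 2.83 RPKM in jmj28 and 19.6 RPKM in JMJ28np5-OE, a log2 fold change of 0.30 ± 0.15 that did not pass (FDR 0.278 by the authors' deposited table). PCNA2 was the more abundant clamp transcript per length in each genotype.

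Of the helicase genes, MCM3, MCM4 and MCM7 rose, and MCM2, MCM5 and MCM6 did not pass. MCM4 had 12.0 ± 0.03 RPKM in jmj28 and 7.97 RPKM in JMJ28np5-OE, with a log2 fold change of 0.54 ± 0.15 by the authors' deposited table (FDR 0.00578). For MCM3 the log2 fold change was 0.49 ± 0.14 (FDR 0.0137), and for MCM7 it was 0.42 ± 0.14 (FDR 0.0425), by the authors' deposited table. MCM2 was close to the threshold, with a log2 fold change of 0.40 ± 0.14 (FDR 0.0634 by the authors' deposited table). It passed when p-values were adjusted over genes with reads only. The values of MCM5 and MCM6 were smaller, at 0.26 ± 0.14 (FDR 0.333) and 0.31 ± 0.15 (FDR 0.287) by the authors' deposited table. The 95% intervals of the 6 helicase genes all overlap, so the 3 that passed are not shown to differ from the 3 that did not.

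Of the 10 genes, 6 were called higher in jmj28 than in JMJ28np5-OE, against 4.12% of all genes tested called higher. Their median log2 fold change was 0.45, against -0.015 over all genes tested. Calls were more frequent at the level of these 10 genes, 7.79 to 60.8 RPKM as the highest genotype mean, where 15.3% of 9940 other genes were called in either direction, against 11.4% of all genes tested. A Bonferroni p under 0.05 called RNR1 and TSO2, against 2.68% of all genes tested, and an FDR under 0.05 with at least 1.5-fold called PCNA1 and TSO2, against 6.36%. The 3 comparisons share libraries, WT in the first 2 and jmj28 or JMJ28np5-OE with the last, so their values for a gene are not independent of each other.

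The levels of the 10 genes summed to 226 and 207 RPKM in the jmj28 libraries, an estimated 146 RPKM in JMJ28np5-OE, and 182 RPKM in each WT library.

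Other replication genes were taken from lists of the known components of the machinery, written with earlier results of these data known. The list of origin licensing and helicase activation held 21 genes, among them the ORC subunits that mark origins and the CDC6 and CDT1 loaders of the helicase. In jmj28 against WT 0 of the 21 passed, in JMJ28np5-OE against WT 0 passed, and in jmj28 against JMJ28np5-OE 3 rose, against 4.12% of all genes tested, and none fell. The 3 were CDT1A, a helicase loading factor, at a log2 value of 0.73 (FDR 0.000368), ORC1B, a subunit of the origin recognition complex, with 0.70 (FDR 0.0161), and ETG1, an MCM-binding protein, with 0.54 (FDR 0.00996), by the authors' deposited table. CDT1A had 9.32 and 9.07 RPKM in the libraries of jmj28, against 6.64 and 7.19 RPKM in WT, without overlap. The list's median log2 fold changes were 0.21 in jmj28 against WT, -0.07 in JMJ28np5-OE against WT and 0.25 in jmj28 against JMJ28np5-OE.

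At the replication fork, 27 genes for polymerases, the clamp loader RFC, the single-strand binding protein RPA, the nuclease FEN1 and the ligase LIG1 were tested. None passed in jmj28 against WT. In JMJ28np5-OE against WT 1 of 27 fell, against 0.684% of all genes tested: RFC3, a subunit of the clamp loader, which fell by 0.60 on the log2 scale by the authors' deposited table (FDR 0.00865). RFC3 had 12.7 and 13.0 RPKM in the libraries of jmj28, against 13.3 and 12.6 RPKM in WT with overlap, and had its highest mean in WT where the 10 genes had theirs in jmj28.

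In jmj28 against JMJ28np5-OE, 6 of the 27 fork genes rose, against 4.12% of all genes tested, and none fell. These were RFC3, with a log2 fold change of 0.55, RPA1B (0.55), a large subunit of RPA, FEN1 (0.52), which trims Okazaki fragments, POLA2 (0.50) and POLA1 (0.34), subunits of DNA polymerase alpha, and LIG1 (0.44), which joins the fragments, all by the authors' deposited table. Medians of the list were 0.05 in jmj28 against WT, -0.17 in JMJ28np5-OE against WT and 0.20 in jmj28 against JMJ28np5-OE. Each was closer to 0 than the median of the 10 genes in the same comparison.

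Of 6 other genes of deoxynucleotide supply, 1 rose in jmj28 against JMJ28np5-OE, where 4.12% of all genes tested rose. This was TK1B, a thymidine kinase, with a log2 fold change of 0.63 (FDR 0.00144). No other of the 6 passed in any comparison in the authors' deposited tables. RNR2A, the other reductase small subunit gene with values here, had 17.8 and 17.6 RPKM in jmj28, against 16.1 and 16.1 RPKM in WT. Its log2 fold change of 0.32 in jmj28 against JMJ28np5-OE did not pass (FDR 0.221 by the authors' deposited table), and per length TSO2 was the more abundant small subunit transcript. RNR2B was not analysed here.

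None of the 9 genes for E2F and DP factors and their repressor RBR1 passed in any comparison. Their median log2 fold changes were 0.09 in jmj28 against WT, 0.11 in JMJ28np5-OE against WT and 0.01 in jmj28 against JMJ28np5-OE. E2FA, an activating E2F, had 4.47 and 5.10 RPKM in the libraries of jmj28, against 4.37 and 4.07 RPKM in WT, without overlap. Its log2 fold change in jmj28 against JMJ28np5-OE was 0.41 (FDR 0.299) by the authors' deposited table. DEL1 and DEL3, atypical E2F factors, had log2 fold changes of 0.57 (FDR 0.222) and 0.59 (FDR 0.206) by the authors' deposited table for the same comparison. These named genes show 1 side of the list only. In that comparison 5 of the 9 genes were higher and 4 lower, down to a log2 fold change of -0.35.

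Genes of mitosis, the later step of the cell cycle, had larger medians than the replication genes in both comparisons of jmj28. In jmj28 against WT 3 of 14 rose, against 0.208% of all genes, the mitotic cyclin CYCB1;2 with a log2 fold change of 0.53 (FDR 0.0250) and CDC20.1 and CDC20.2, activators of the anaphase-promoting complex, with 0.59 (FDR 0.00254) and 0.71 (FDR 0.000581), by the authors' deposited table. In JMJ28np5-OE against WT CDC20.2 alone passed, where 2.87% of all genes tested rose, and it rose there too, by 0.53 on the log2 scale by the authors' deposited table (FDR 0.0242). CDC20.1 and CDC20.2 are closely related neighbouring genes, and how the counting divided reads between such copies is not given. In jmj28 against JMJ28np5-OE 6 of 14 rose, against 4.12% of all genes tested, and none fell: KNOLLE, the syntaxin of the cell plate, with a log2 fold change of 0.83, CYCB1;4 (0.74), CDKB1;2 (0.73), CYCB1;2 (0.72), CDKB2;1 (0.53) and CDC20.1 (0.44), by the authors' deposited table. KNOLLE had 30.2 and 29.7 RPKM in the libraries of jmj28, against 21.6 and 22.1 RPKM in WT. The list's medians were 0.37 in jmj28 against WT, -0.21 in JMJ28np5-OE against WT and 0.57 in jmj28 against JMJ28np5-OE.

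Of 9 DNA damage response genes with a test, WEE1, a kinase that delays the cell cycle when replication is impaired, was the only one to pass. It rose in jmj28 against JMJ28np5-OE, with a log2 fold change of 0.83 (FDR 0.0214) by the authors' deposited table. There 4.12% of all genes tested rose and 11.4% were called in either direction. WEE1 had 3.58 and 3.67 RPKM in the libraries of jmj28, against 2.38 and 2.76 RPKM in WT. The median of the 9 was -0.14 in jmj28 against JMJ28np5-OE, on the other side of 0 from the replication genes. RAD17, of the damage checkpoint, stood at log2 -0.18 in jmj28 against JMJ28np5-OE by the authors' deposited table.

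**Figure D4:**
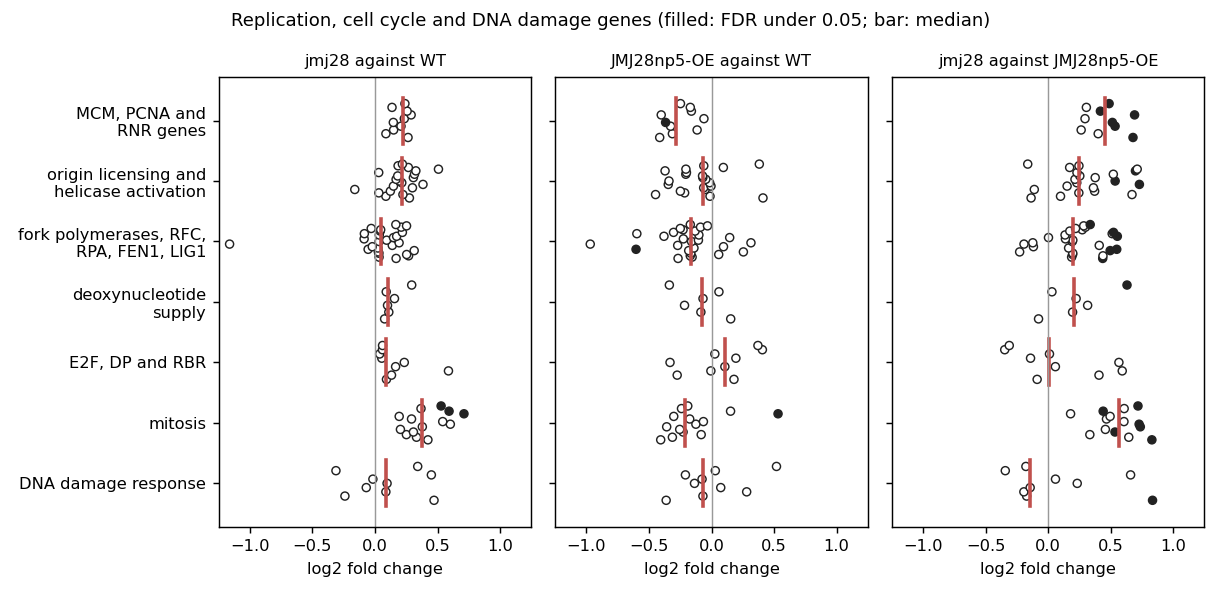
Log2 fold changes of the replication genes and 6 related lists in the 3 comparisons, from the authors' deposited tables; each circle is a gene, filled circles passed FDR 0.05 and red bars are medians. In jmj28 against JMJ28np5-OE the medians were 0.45 for the replication genes, 0.57 for mitosis and 0.01 for E2F, DP and RBR.

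Markers of tissues that hold many or few dividing cells were measured beside these lists. Of 8 meristem markers, STM, which keeps shoot meristem cells undifferentiated, was the only one to pass. It fell by 0.81 on the log2 scale in jmj28 against JMJ28np5-OE by the authors' deposited table (FDR 0.00751). There 7.29% of all genes tested fell. That is the opposite direction to the replication genes. In the same comparison 3 of the 8 markers were higher and 5 lower. PLT1 (0.86), PLT2 (0.59) and ANT (0.36) were higher and KNAT1 (-0.50) lower, by the authors' deposited table, none of these past the test. The 8 summed to 28.3 RPKM in jmj28, 28.3 RPKM in JMJ28np5-OE and 27.4 RPKM in WT as genotype means. ANT, which promotes growth of young organs, had 16.6 and 14.8 RPKM in the libraries of jmj28, against 13.0 and 14.4 RPKM in WT. WUS and CLV3, which define the centre of the shoot meristem, had highest genotype means of 0.136 RPKM for WUS and 0.049 RPKM for CLV3.

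The 8 root markers had mixed directions in jmj28 against WT and a shared direction in jmj28 against JMJ28np5-OE. In jmj28 against WT 5 of 8 were higher, with a median log2 fold change of 0.06, and in JMJ28np5-OE against WT 1 of 8 was higher, with a median of -0.19 and none past the test. All 8 were higher in jmj28 than in JMJ28np5-OE, with a median of 0.35, the same direction as the replication genes. Their 8 genotype means summed to 81.8 RPKM in jmj28, 56.7 RPKM in JMJ28np5-OE and 62.7 RPKM in WT. Of the 8, 2 passed: TIP2;3, a root aquaporin, and AGP30, a root arabinogalactan protein. Both rose in jmj28 against WT, with log2 fold changes of 1.01 and 0.93, where 0.208% of all genes tested rose. Both also rose in jmj28 against JMJ28np5-OE, with 0.82 and 0.96, where 4.12% rose, by the authors' deposited tables. All 8 root markers were detected. Mature leaf markers summed to 13190 RPKM in jmj28, 13895 RPKM in JMJ28np5-OE and 13457 RPKM in WT, and none of 6 passed. RBCS1A, a Rubisco small subunit gene, had a log2 fold change of -0.13, FBA2, a plastid aldolase gene, -0.11, and CAB3, a light-harvesting gene, -0.17, each in jmj28 against JMJ28np5-OE by the authors' deposited table. The part of these root markers in the replication gene differences was not tested.

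Touch and early stress genes differed in the opposite direction to the replication genes and by much more. Of 6 such markers, 4 fell in jmj28 against WT, where 1.1% of all genes tested fell. All 6 rose in JMJ28np5-OE against WT, where 2.87% rose, and all 6 fell in jmj28 against JMJ28np5-OE, where 7.29% fell. In that last comparison ZAT10, CAF1A, WRKY40, ERF104, TCH4 and TCH3 had log2 fold changes of -3.67, -3.58, -3.50, -3.10, -2.43 and -2.03 by the authors' deposited table. Their genotype means summed to 33.3 RPKM in jmj28, 238 RPKM in JMJ28np5-OE and 87.9 RPKM in WT. They also differed between libraries of a genotype, with sums of 181 and 294 RPKM in the deeper and shallower JMJ28np5-OE library, against 113 and 62.8 RPKM in WT. The replication genes summed to 182 RPKM in each of these WT libraries, but single genes differed between the libraries in both directions. Of them, 5 were higher in the deeper WT library and the others in the shallower. MCM2 had 11.2 and 9.33 RPKM in the deeper and shallower WT library, and TSO2 had 46.8 and 50.6 RPKM. The part of these stress markers in the replication gene differences was not tested.

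By their pair of median log2 fold changes against WT, 0.22 in jmj28 and -0.28 in JMJ28np5-OE, the 10 genes were set beside 2218 other genes of at least 5 RPKM called in jmj28 against JMJ28np5-OE. The 5 nearest by Euclidean distance over these 2 values were RPS25D at 0.0085, FLN2 at 0.0088, ATNAP9 at 0.013, GSTU1 at 0.013 and AT2G41380 at 0.014. None of the 5 was on another list. The 10 genes themselves lay at distances of 0.037 to 0.22 from their own median. The 5 were nearer than any member, but they were picked as the nearest of 2218, so nothing is concluded from that.

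Reads of some of the 10 genes can be shared with other genes. The gene model of MCM7 overlaps AT4G02050 on the opposite strand by 437 bases, 8.82% of the length of MCM7, and that of PCNA2 overlaps AT2G29560 on the opposite strand by 279 bases, 15.1% of its length. The counting tool is not given, so whether reads in these stretches were told apart by strand is not known. Neither neighbour passed FDR 0.05 in any comparison. The coding sequences of PCNA1 and PCNA2 are 85.5% identical, with a longest shared run of 41 bases, against reads of 150 bases. TSO2 and RNR2A are 65.1% identical, with a longest shared run of 13 bases. TSO2 also shares 3 bases with AT3G27050 on its own strand.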

How the data were processed

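RNA of Col-0 seedlings was sequenced in 6 libraries, 2 per genotype, grouped by the genotype in the labels. Per the labels, the libraries were TruSeq RNA libraries read as pairs of 150 bases. TAIR10 was the build, per the submitters' processing notes, with the aligner, the counting tool and the statistical test not given in the sources used here.

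Per genotype pair, 1 of 3 deposited tables holds, per the file headers, the authors' log2 fold change, signed fold change, p-value, FDR and Bonferroni p, and the highest genotype mean. The deposited means are in RPKM, a unit the headers do not name and that was found because the authors' values times exon length give whole reads. The tables hold no counts per library, so a fit on counts could not be run. A call is the authors' FDR under 0.05 over 34262 listed genes, of which 10720 had no reads. CO and FT, the 2 genes whose log2 fold changes do not add up over the 3 tables, were left out, which leaves 23540 tested genes.

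The RPKM means were solved for whole reads per library with a tolerance of 1e-06 of a read, which gave 1 solution for 98.8% of 45903 means and more than 1 for 41. Tested on simulated data of 3000 genes, 5997 of 5997 solved means gave the true reads. The JMJ28np5-OE means of the replication genes were set from the recovered means and the deposited log2 fold changes, after the median offset of RPKM ratios from those fold changes (0.03 in jmj28 against WT, -0.02 in JMJ28np5-OE against WT and 0.06 in jmj28 against JMJ28np5-OE). Standard errors and 95% intervals were computed from the deposited log2 fold change and p-value, read as a Wald test. This reading was checked on 1606 genes, where the dispersions implied for jmj28 and WT had a median ratio of 1.00. Nothing says that the libraries came from separate cultures, so the spread behind the p-values may be technical. The standard errors did not follow the library spread of the single gene. In jmj28 against WT they were 0.14 for both MCM4 and MCM2. The WT libraries differed by 0.01 on the log2 scale for MCM4 and by 0.27 for MCM2.

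The smallest library held 10632893 reads and the largest 19693228, so that 1 read per kilobase is worth 0.094 RPKM in the smallest and 0.051 RPKM in the largest. Gene starts and sequences come from the TAIR10.1 reference of RefSeq, whose starts and ends equal the deposited ones for all 10 genes. Scripts used Python 3.11.15 with pandas 2.3.3, numpy 2.4.6, scipy 1.17.1 and matplotlib 3.10.9. The 10 genes and all lists were chosen with earlier results of these data known. Named genes are the 10, those of each list past FDR 0.05 in any comparison or otherwise up to 3 with the smallest p-value, JMJ28, and the 5 genes most alike. ANT, KNAT1, PLT1, PLT2, RNR2A, WUS, CLV3, RAD17 and the overlapping neighbours are named outside that rule or as a choice from it, after their values were seen. Alternatives changed the adjustment, the threshold, the pseudocount of 1 RPKM, the libraries left out and the word searched.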

Additional observations from a re-analysis of the deposited data

How the results depend on the processing

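In jmj28 against WT 0 of the 10 replication genes were called under each threshold and adjustment tried. In JMJ28np5-OE against WT, where 1 was called, a Bonferroni p under 0.05 called 0, an FDR under 0.05 with at least 1.5-fold called 0, and adjustment over genes of at least 1 RPKM called 2 (RNR1 and TSO2). In jmj28 against JMJ28np5-OE, where 6 were called, the Bonferroni rule called 2 and the 1.5-fold rule called 2. Adjusting over genes with reads or over genes of at least 1 RPKM called 7 there, MCM2 in addition. Under the Bonferroni rule all calls of the 6 pathway lists in the 3 comparisons were lost but 2 of 6 mitotic genes in jmj28 against JMJ28np5-OE. Those lost were 3 of origin licensing, 6 of the fork, 1 of deoxynucleotide supply and 1 of DNA damage in that comparison, 1 of the fork and 1 of mitosis in JMJ28np5-OE against WT and 3 of mitosis in jmj28 against WT. Ratios of mean RPKM, with or without a pseudocount of 1, were above 0 for all 10 genes in jmj28 against WT. Those of MCM4 (log2 0.24, and 0.22 with the pseudocount) and MCM6 (0.17) moved by more than the spread between replicates. That spread was small for both genes. The deeper over the shallower library stood at log2 0.005 in jmj28 and 0.01 in WT for MCM4. For MCM6 the values were 0.02 and -0.02. Over 6528 genes such ratios had a median offset of 0.03 from the deposited fold changes, so the move is not particular to these genes. Leaving out each recovered library in turn gave log2 values of -0.04 to 0.42 in jmj28 against WT, -0.47 to -0.02 in JMJ28np5-OE against WT and 0.17 to 0.82 in jmj28 against JMJ28np5-OE. MCM2 in jmj28 against WT changed sign without the shallower WT library, at -0.04. An E2F-type word was found in 5 of 10 windows of 200 bases and the core in 8 of 10. DESeq2 and other size factors were not run, since the tables hold no counts per library. No paired analysis was possible because the tables hold no values with a replicate number. The JMJ28np5-OE spread of the 10 genes is unknown, and leaving out a JMJ28np5-OE library could not be done for them.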
